A study of Mus musculus with 14 samples.

Results

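The miR-17, miR-18 and miR-19 seed families were followed through cells of the mouse small intestine that had been separated by Sox9-eGFP fluorescence. The 10 entries were taken by name from the 2030 miRNA entries of the deposited table: miR-17-5p, miR-20a-5p, miR-93-5p, miR-106a-5p, miR-106b-5p, miR-106b-3p, miR-18a-5p, miR-19a-3p, miR-19b-1-3p and miR-19b-2-3p, each at its annotated start (the table writes them as mmu-mir-17-5p, mmu-mir-20a-5p, mmu-mir-93-5p and so on). All 10 passed the filter on low values and were tested. miR-93-5p, miR-17-5p and miR-20a-5p were lower in High cells than in each of the other sorted populations, while no difference among the sorted populations was called for miR-19a-3p or for either copy of miR-19b-3p with all libraries in the fit.

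A miRNA guides the Argonaute protein to messenger RNAs that pair with its seed, the bases near its 5′ end, and miRNAs with the same seed are therefore grouped as a family. The families described here are made from 3 clusters of hairpins, each of which is cut from 1 long primary transcript. The miR-17-92 cluster is a known oncogene that is switched on by Myc and E2F factors and restrains the cell cycle inhibitor Cdkn1a and the proapoptotic gene Bcl2l11. The miR-106b-25 cluster lies within the replication gene Mcm7 and is transcribed with it, and the miR-106a-363 cluster is an X-linked copy. In the intestine, the miR-17-92 cluster is known for its activity in proliferating crypt cells and in tumours of the colon.

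The data are 14 small RNA libraries from the small intestine of C57BL/6J mice with the Sox9-eGFP reporter. The groups were the High, Low, Sublow and Negative populations, with 3 libraries each, and Non-sorted cells, with 2. The reporter was shared by all groups, the Non-sorted cells included. By the labels the populations were set by the fluorescence gate, with no gate for Non-sorted cells, while lane codes were not balanced between the groups. The transgene follows Sox9 regulatory sequence, so a gate is a level of fluorescence and can hold several cell types. Earlier work with this reporter connected the brightest gate with enteroendocrine cells, the Low gate with crypt stem cells, the Sublow gate with dividing progenitors and the Negative gate with mature epithelium. No age or sex is given in the labels, and libraries of 1 group are not stated to be separate animals. All p-values therefore cover the spread between libraries alone.

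The mature sequences are shown because the seed defines the families and because several members differ by only 1 or 2 bases. They were taken from RefSeq (GRCm38.p6), in which all 10 members were matched, and the seed, bases 2 to 8, is in capitals.
miR-17-5p: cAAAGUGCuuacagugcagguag
miR-20a-5p: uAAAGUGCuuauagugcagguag
miR-93-5p: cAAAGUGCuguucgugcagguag
miR-106a-5p: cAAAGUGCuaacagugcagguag
miR-106b-5p: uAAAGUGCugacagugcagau
miR-18a-5p: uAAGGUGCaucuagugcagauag
miR-19a-3p: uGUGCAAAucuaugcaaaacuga
miR-19b-3p: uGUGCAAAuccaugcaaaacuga
miR-106b-3p: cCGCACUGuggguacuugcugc
miR-20b-5p: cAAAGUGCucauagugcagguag

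The first 5 of these share the miR-17 seed. miR-20b-5p, a neighbour of miR-106a-5p in the X-linked cluster, has this seed too and was counted with the cluster partners, not with the 10 entries. The miR-18 seed departs from it at 1 base, A4G, with positions counted from 1 at the 5′ end and the base of miR-17-5p written first. miR-106b-3p is the opposite arm of the miR-106b hairpin and has a seed of its own, so it belongs to the miR-106b-25 cluster but to none of the 3 seed families. miR-17-5p and miR-106a-5p differ only by U10A, and miR-19a-3p and miR-19b-3p only by U11C. How reads were counted is not stated in the sources at hand, so reads may have been shared between such pairs. The copies of miR-19b-3p on chromosomes 14 and X have the same sequence, and their values differed by -2 to 6.11% across the 14 libraries, so the signal cannot be assigned to either hairpin.

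By the annotation of GRCm38, the 6 hairpins of the miR-17-92 cluster lie on chromosome 14 in an exon of the noncoding gene Mir17hg. The 3 hairpins of the miR-106b-25 cluster lie on chromosome 5 within Mcm7, Mir106b in an intron and Mir93 and Mir25 overlapping annotated exons. In the X-linked cluster, Mir106a overlaps an exon of the noncoding gene Kis2, and the other 5 hairpins overlap no annotated gene.

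Values are in RPM, with every library scaled to the same total of 1e+06 over its miRNA entries, so a rise of one abundant miRNA lowers the values of the others. In bulk samples of this kind, fewer cells of a type and less RNA per cell cannot be told apart. The depth, estimated from the steps between low values, was 1.89 to 16.4 M reads per library (M, 1e+06), and a value of 0 means fewer than about 10 reads. miRNAs that mark intestinal epithelium were present in every library, at a summed 197246 to 582433 RPM. The endocrine markers miR-375-3p, miR-7a-1-5p and miR-7b-5p summed to 151003 to 172443 RPM in High, 82016 to 106946 in Low, 24003 to 25588 in Sublow and 2551 to 3634 in Negative. Markers of other cell types were low, at a summed 6.51 to 213 RPM for the haematopoietic list, 7.39 to 38.3 for the erythroid, 19.4 to 95.7 for the mesenchymal and 0 to 17.1 for the endothelial. Of these, miR-142-3p, miR-451, miR-144-3p and miR-145-5p were at 0 throughout. Listed in every library were miR-486-5p (7.39 to 38.3), miR-155-5p (6.51 to 103), miR-143-3p (6.63 to 52.9) and miR-1a-1-3p (6.69 to 33.45). In the mesenchymal list, miR-1a-1-3p was 24.58 to 33.23 in High and 6.69 to 8.85 in Negative, and miR-143-3p 6.63 to 14.28 and 9.44 to 22.5. The endothelial sum was 10.2 to 17.1 in High and 0.81 to 5.09 in Negative. The part of these cell types in the differences described here was not tested.

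The libraries also fell into a pair of sets that cut across the populations. In 7 libraries (High 2, Low 2, Sublow 2, Negative 1 and 2, Non-sorted 1 and 2) miR-295-3p, a miRNA of pluripotent cells, was listed at 395 to 928 RPM, and in the other 7 it was at 0. The other pluripotency markers followed it, with a summed 0 RPM in the latter 7 and 879 to 2022 in the former, and the haematopoietic sum was 11.1 to 213 and 6.51 to 42.4. By the code in the labels that was read here as a lane, all 5 libraries of one lane list miR-295-3p, all 4 of another and the 1 of the last do not, and the 4 labelled Combo are split 2 and 2. For each member the difference of High from Low is also given within these sets, with 2 libraries of each population in the set without miR-295-3p and 1 of each in the other. The fit with a term for the split and the fit of only the 7 libraries without miR-295-3p were chosen after seeing the data.

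miR-93-5p, from the cluster within Mcm7, was the most abundant member and made up 70.8 to 87.7% of the sum of the 5 members with the miR-17 seed, and 67.4 to 86.9% when miR-20b-5p was added to that sum. Its value was 1209.7, 1305 and 1368 RPM in High 1, 2 and 3, and 3760.0, 4428 and 4228 in Low 1, 2 and 3. In Sublow 1, 2 and 3 it was 2972, 3007 and 3797, in Negative 2087, 2383 and 2185, and in Non-sorted 1 and 2 it was 2204 and 1581. All High libraries lay below every other library, and the Low and Sublow libraries all lay above the Negative ones, while Sublow 3 reached into the range of Low.

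In High cells miR-93-5p was 3.19-fold lower than in Low (log2 difference of (RPM + 1) -1.67, SE 0.14, limma adjusted p = 6.51e-06). It was 2.50-fold lower than in Sublow (-1.32, adjusted p = 8.61e-06) and 1.71-fold lower than in Negative (-0.78, adjusted p = 0.000339). The difference from Low was as large in both sets of libraries, -1.63 among those without miR-295-3p (2 against 2) and -1.76 among those with it (1 against 1). Negative cells were lower than Low (-0.90, SE 0.14, adjusted p = 0.000117) and than Sublow (-0.55, adjusted p = 0.00776). The differences of Negative were lost after median-ratio scaling, which sets the typical miRNA equal between libraries, at -0.02 (adjusted p = 0.898) and -0.07 (adjusted p = 0.749), while the 3 differences of High were called under both scalings. Among the 7 libraries without miR-295-3p, Negative against Sublow was -0.62 (adjusted p = 0.0561). Sublow against Low missed the threshold (-0.35, 95% interval -0.65 to -0.05, adjusted p = 0.0642), and passed it without Sublow 3 (-0.47, adjusted p = 0.0277) or without either Non-sorted library (adjusted p = 0.0335 and 0.0342).

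**Figure D1:**
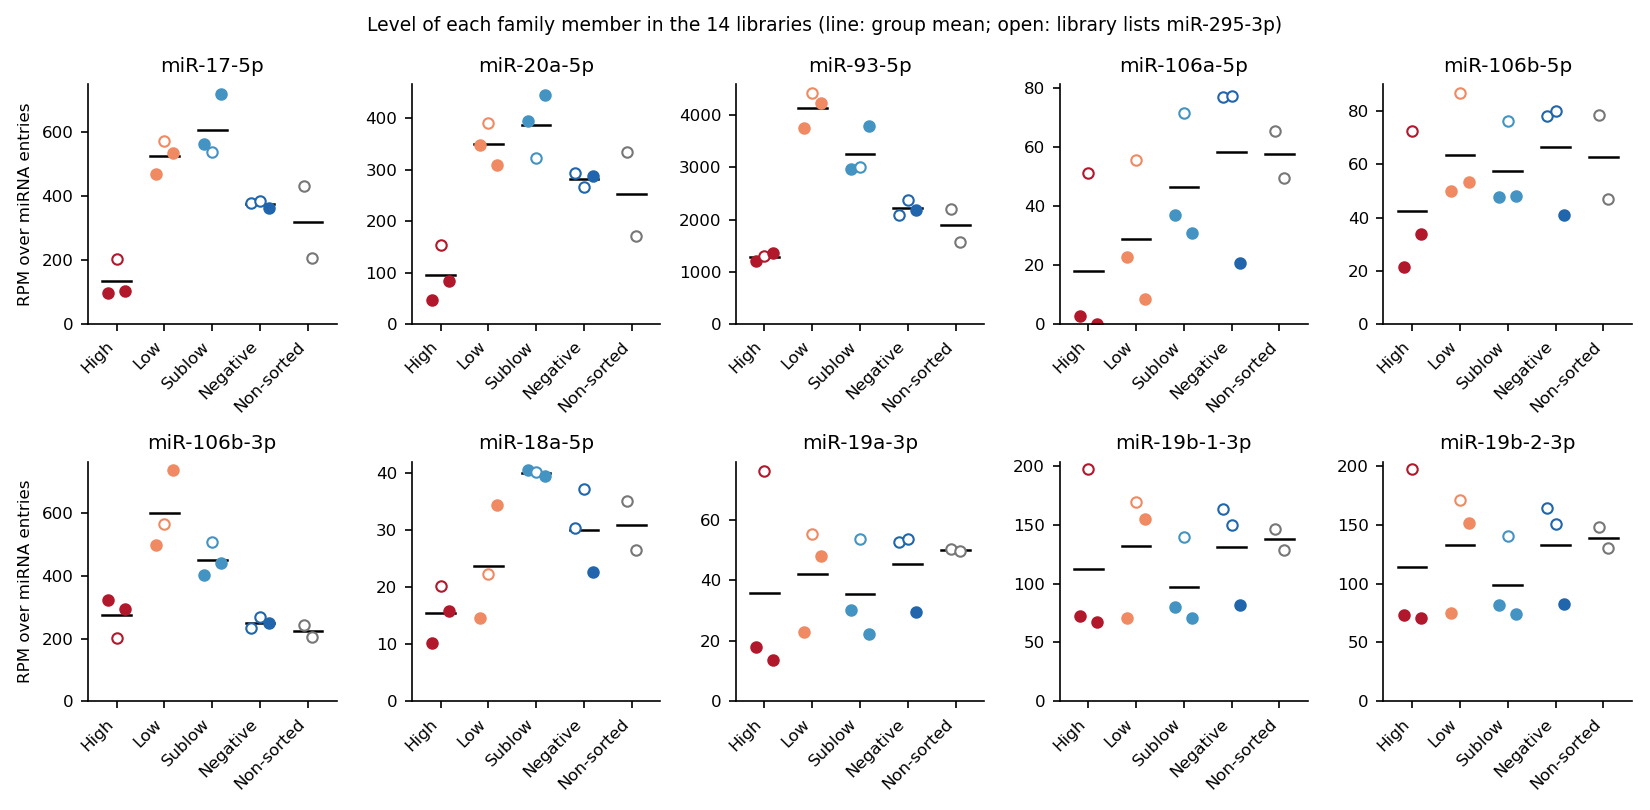
Level of each of the 10 miRNAs (RPM over miRNA entries, vertical axis from 0, scale differing by panel) in each library of the 5 groups, with the group mean as a line and open symbols for libraries that list miR-295-3p. miR-17-5p, miR-20a-5p and miR-93-5p are low in all High libraries, while for miR-106a-5p and miR-19a-3p the open symbols lie above all filled ones.

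miR-17-5p, the first miRNA of the miR-17-92 cluster, was 98.0, 203 and 104 RPM in High 1, 2 and 3, and 467, 573 and 534 in Low. It was 562, 539 and 717 in Sublow, 378, 384 and 364 in Negative, and 431 and 206 in Non-sorted 1 and 2. The highest High library, which lists miR-295-3p, was still below every Negative library, and Low and Sublow overlapped.

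High cells had 4.08-fold less miR-17-5p than Low (log2 difference -2.03, SE 0.29, adjusted p = 0.000357), 4.69-fold less than Sublow (-2.23, adjusted p = 5.98e-05) and 2.93-fold less than Negative (-1.55, adjusted p = 0.000582). The difference from Low was -2.29 within the libraries without miR-295-3p and -1.49 within those with it, and from Sublow -2.64 and -1.41. High shares no lane code with Sublow or Negative. With a lane term, such a comparison runs through Low, by the High and Low libraries labelled Combo and by Low 1. Low 1 is the only Low library to share a lane code with Sublow or Negative. High against Negative was then -1.70 (adjusted p = 0.0586). Sublow against Low was 0.20 (95% interval -0.44 to 0.84), and Negative against Low -0.48 (-1.12 to 0.16), which turned to 0.40 (adjusted p = 0.259) after median-ratio scaling. Negative against Sublow was -0.68 (adjusted p = 0.0963), and was called without High 2 (adjusted p = 0.0348) and with only the sorted libraries (0.0486). Among the 7 libraries without miR-295-3p the difference was -0.80, from 1 Negative and 2 Sublow libraries. It was not called with a lane term (-0.65, adjusted p = 0.177) or after median-ratio scaling (-0.20, adjusted p = 0.685).

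miR-20a-5p is made from the same transcript and has the same seed, differing from miR-17-5p at C1U and C12U. Its value was 46.7, 155 and 83.0 RPM in High 1, 2 and 3, 348, 391 and 309 in Low, 395, 322 and 446 in Sublow, 295, 267 and 288 in Negative, and 335 and 171 in Non-sorted. High again lay below all other libraries, and the Negative libraries lay below all of Low and Sublow.

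In High, miR-20a-5p was 4.08-fold lower than in Low (log2 difference -2.03, SE 0.36, adjusted p = 0.00131), 4.51-fold lower than in Sublow (-2.17, adjusted p = 0.000359) and 3.32-fold lower than in Negative (-1.73, adjusted p = 0.00115). Within the libraries without miR-295-3p and those with it, High against Low was -2.38 and -1.33, and High against Sublow -2.73 and -1.05. A lane term left the difference from Low called and gave -2.23 (adjusted p = 0.0627) against Sublow and -1.86 (adjusted p = 0.105) against Negative. Sublow against Low was 0.14 (95% interval -0.64 to 0.93) and Negative against Low -0.30 (-1.08 to 0.49), and neither passed the test. miR-17-5p and miR-20a-5p kept a ratio of 1.21 to 2.10 across all 14 libraries. Over the 12 sorted libraries their log2 values had a Pearson r of 0.974, a description only, since the points share populations and library totals.

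miR-106b-5p, made from the same Mcm7 transcript as miR-93-5p, was far less abundant. It was 21.6, 72.3 and 33.8 RPM in High 1, 2 and 3, 49.8, 86.7 and 53.4 in Low, 47.9, 76.3 and 48.0 in Sublow, 78.3, 80.1 and 40.8 in Negative, and 78.5 and 47.1 in Non-sorted. The groups overlapped, and within each sorted population every library that lists miR-295-3p was above those that do not. High against Low was -0.69 (95% interval -1.64 to 0.26, adjusted p = 0.269), High against Sublow -0.56 (-1.51 to 0.39, adjusted p = 0.301) and High against Negative -0.74 (-1.69 to 0.21, adjusted p = 0.151). High against Low was -0.91 within the libraries without miR-295-3p and -0.26 within those with it. With a term for the split, High against Low was called at the same -0.69 (adjusted p = 0.0473), and High against Negative was called without High 2 (-1.20, adjusted p = 0.0194) and after median-ratio scaling (-1.28, adjusted p = 0.0199).

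miR-106a-5p, the X-linked copy that differs from miR-17-5p at 1 base, was the member most bound to the set of libraries. miR-106a-5p was 2.72, 51.2 and 0 RPM in High 1, 2 and 3, 22.7, 55.6 and 8.59 in Low, 37.0, 71.5 and 30.8 in Sublow, 77.1, 77.3 and 20.6 in Negative, and 65.5 and 49.7 in Non-sorted. The 7 libraries that list miR-295-3p held 49.7 to 77.3 RPM and the other 7 held 0 to 37.0, without overlap, whereas every pair of sorted populations overlapped. In the fit with a term for the split, libraries that list miR-295-3p were 2.40 higher on the log2 scale, against a median of -0.02 and a 10th to 90th percentile range of -0.51 to 1.05 over all 588 tested entries. Its neighbour in the X-linked cluster, miR-20b-5p, was 2.34 higher in the same fit.

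The F test over the sorted populations did not call miR-106a-5p (adjusted p = 0.0905; 0.00136 without High 2). High against Negative was the 1 pair called for it (-3.14, SE 1.17, adjusted p = 0.0333). That call was lost without High 1 (adjusted p = 0.0924), High 3 (0.143), Negative 1 (0.092) or Negative 2 (0.0927), and with a lane term, where the difference was -0.87 (adjusted p = 0.755). Within the libraries without miR-295-3p it was -3.49, from 2 High and 1 Negative library, and within those with it -0.58, from 1 and 2. High against Low was -2.02 (adjusted p = 0.229) and High against Sublow -2.94 (adjusted p = 0.0541). Without High 2 these were -3.60 (adjusted p = 0.00824) and -4.52 (adjusted p = 0.000917), and among the 7 libraries without miR-295-3p they were -2.97 (adjusted p = 0.0344) and -4.17 (adjusted p = 0.00502). High against Low among the libraries that list it was -0.12, from 1 library each. The fit with a term for the split called miR-106a-5p in the F test (adjusted p = 0.0141) and in High against Low (-2.02, adjusted p = 0.0495), High against Sublow (-2.94, adjusted p = 0.00506) and High against Negative (-2.34, adjusted p = 0.0154). The split and the populations are partly confounded, since 2 of 3 Negative and 1 of 3 High libraries list miR-295-3p.

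**Figure D2:**
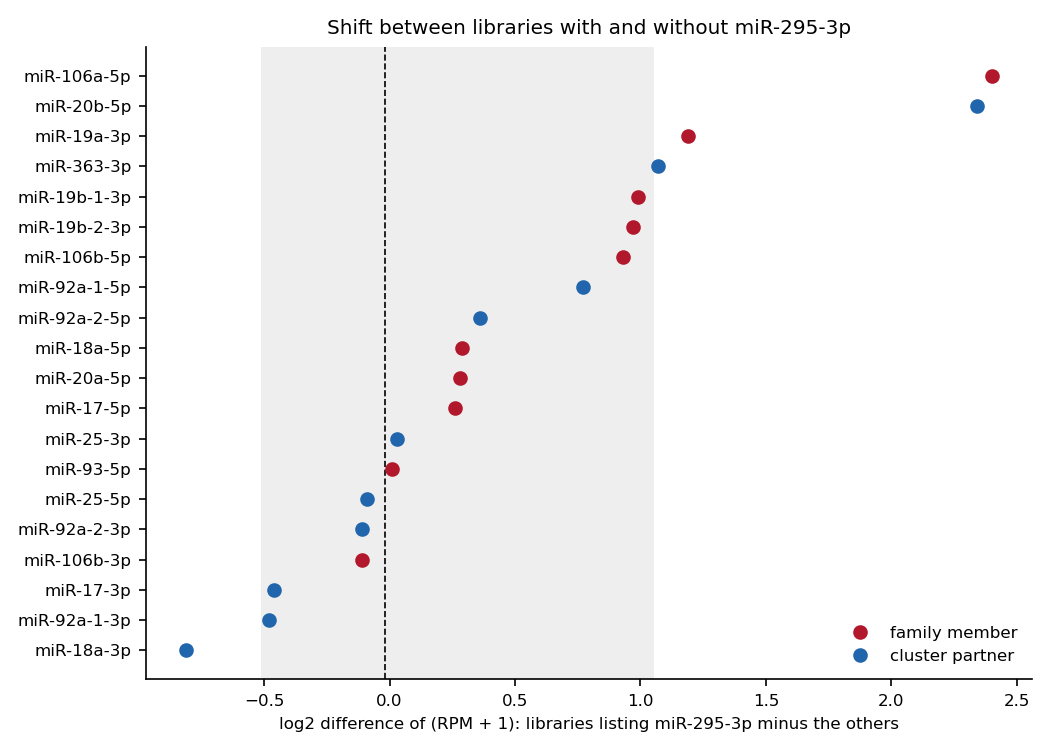
Difference between libraries that list miR-295-3p and those that do not (log2 of RPM + 1, horizontal axis) for the 10 members in red and their 10 tested cluster partners in blue, from the fit with a term for the split. The dashed line is the median and the grey band the 10th to 90th percentile range over 588 entries; miR-106a-5p at 2.40 and miR-20b-5p at 2.34 lie farthest to the right and miR-93-5p at 0.01 near the median.

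Summed over the 5 members with the miR-17 seed, the level came to 1584 ± 204 RPM in High (SD, n = 3), 5105 ± 444 in Low, 4356 ± 591 in Sublow and 3001 ± 165 in Negative. The Non-sorted libraries gave 2584 ± 749 (n = 2). With miR-20b-5p, which was 0 to 209.9 RPM and at most 6.22% of the larger sum, these were 1628 ± 259, 5165 ± 459, 4476 ± 555, 3150.4 ± 229 and 2722 ± 777. The sum follows miR-93-5p, which outnumbered miR-17-5p in every library. The mix within the sum was not the same in all groups. miR-17-5p was 10.3 ± 0.19% of it in Low and 13.9 ± 0.42% in Sublow, and miR-20a-5p 6.86 ± 0.76% and 8.90 ± 0.91%, without overlap between these groups for either. In High the share of miR-17-5p ranged from 6.56 to 11.4%, with High 2 above the other High libraries. These shares were not tested.

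**Figure D3:**
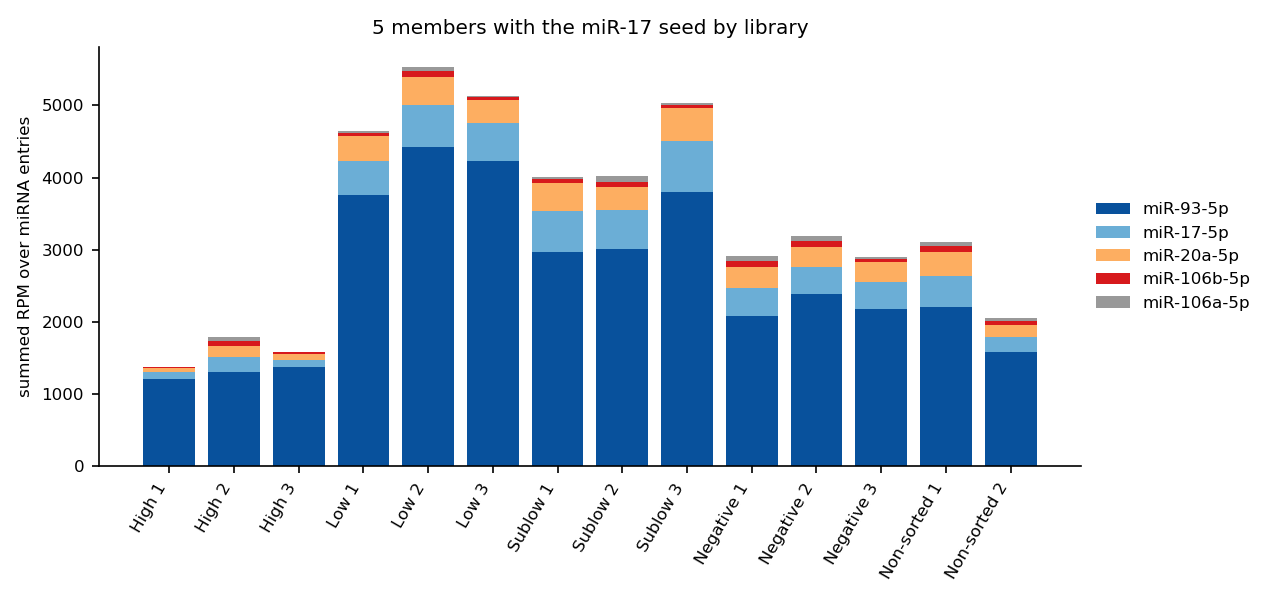
Summed RPM of the 5 miRNAs with the miR-17 seed in each of the 14 libraries (vertical axis from 0), with each miRNA as a coloured part of the bar. miR-93-5p forms 70.8 to 87.7% of every bar, and the 3 High bars, at 1379 to 1786, are the lowest.

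miR-106b-3p, the opposite arm of the miR-106b hairpin, was more abundant than miR-106b-5p in every library. It was 324, 203 and 294 RPM in High 1, 2 and 3, 499, 567 and 736 in Low, 402, 506 and 440 in Sublow, 234, 268 and 249 in Negative, and 242 and 205 in Non-sorted. High and Negative overlapped, and both lay below all Low and Sublow libraries. It was low at both ends of the fluorescence scale, whereas miR-93-5p in Negative lay between its levels in High and in Sublow.

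miR-106b-3p was 2.20-fold lower in High than in Low (log2 difference -1.14, SE 0.19, adjusted p = 0.00107) and 1.66-fold lower than in Sublow (-0.73, adjusted p = 0.00788; -0.44 with adjusted p = 0.121 among the 7 libraries without miR-295-3p). In Negative it was 2.37-fold lower than in Low (-1.24, adjusted p = 0.000128) and 1.79-fold lower than in Sublow (-0.84, adjusted p = 0.00466). High against Low was -0.97 within the libraries without miR-295-3p and -1.47 within those with it. After median-ratio scaling the differences of Negative were -0.37 (adjusted p = 0.136) and -0.36 (adjusted p = 0.208), and those of High were still called. Among the 7 libraries without miR-295-3p, Negative against Sublow was -0.76 (adjusted p = 0.0793). Sublow against Low was -0.40 (95% interval -0.82 to 0.01, adjusted p = 0.12). High against Negative was 0.11 (-0.31 to 0.52, adjusted p = 0.637) and turned to -0.44 after median-ratio scaling (adjusted p = 0.0574), to -0.24 with a lane term (adjusted p = 0.66) and to -0.03 without High 1 (adjusted p = 0.905). It was 0.31 within the libraries without miR-295-3p and -0.30 within those with it.

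The ratio of miR-106b-3p to miR-106b-5p ran from 2.81 to 15.1 over the 14 libraries, so the listed arm levels were not in a fixed proportion. It was 15.1, 2.81 and 8.70 in High 1, 2 and 3, with the lowest of these in the library that lists miR-295-3p. The arms differed in their split term, 0.93 for miR-106b-5p and -0.11 for miR-106b-3p. For the miR-17 hairpin, the ratio of miR-17-5p to miR-17-3p ran from 2.855 to 18.58. In High, miR-17-3p was lower than in Low (-1.06, limma adjusted p = 0.039). It was not called in High against Sublow (-0.46, adjusted p = 0.284) or Negative (0.19, adjusted p = 0.637).

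miR-18a-5p, the miR-17-92 member with the miR-18 seed, was the least abundant of the 10 by its mean over the sorted libraries, 27.3 RPM. Its value was 10.2, 20.2 and 15.9 RPM in High 1, 2 and 3, 14.6, 22.3 and 34.5 in Low, 40.5, 40.2 and 39.5 in Sublow, 30.3, 37.1 and 22.7 in Negative, and 35.1 and 26.5 in Non-sorted. The Sublow libraries lay close together and above all others, and High lay below Negative but overlapped Low. miR-18b-5p of the X-linked cluster has the same seed and was counted with the cluster partners. It was 0 to 9.66 RPM over the libraries, highest in Low 2, and did not pass the filter.

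High was 2.59-fold lower than Sublow for miR-18a-5p (log2 difference -1.37, SE 0.33, adjusted p = 0.00494). High against Negative was called (-0.94, adjusted p = 0.0262), but not without High 1 (adjusted p = 0.105), Negative 1 (0.0655) or Negative 2 (0.0937), nor with a lane term (0.0571), with no filter on low values (0.0653) or among the 7 libraries without miR-295-3p (0.281). High against Low was -0.56 (95% interval -1.29 to 0.16, adjusted p = 0.239), with -0.77 within the libraries without miR-295-3p and -0.14 within those with it. Sublow against Low was 0.81 (0.08 to 1.53, adjusted p = 0.0757) and was called higher without Low 3 (1.11, adjusted p = 0.026) and after median-ratio scaling (1.18, adjusted p = 0.0169). Negative against Low was 0.38 (adjusted p = 0.33). It was called higher after median-ratio scaling (1.22, adjusted p = 0.00797) and after quantile normalization (0.94, adjusted p = 0.0273). Negative against Sublow was -0.43 (-1.16 to 0.29, adjusted p = 0.366). The F test called miR-18a-5p (adjusted p = 0.015), but not with a lane term (0.0517) or among the 7 libraries without miR-295-3p (0.0952).

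The miR-19 family, whose seed is unrelated to that of miR-17, showed no called difference with all libraries in the fit. Without High 2, miR-19a-3p was called lower in High than in Negative (-1.42, adjusted p = 0.0159, against -0.69 and 0.323 with all libraries). miR-19a-3p was 17.95, 76.1 and 13.7 RPM in High 1, 2 and 3, 23.0, 55.5 and 47.9 in Low, 30.3, 53.8 and 22.2 in Sublow, 52.7, 53.8 and 29.6 in Negative, and 50.3 and 49.8 in Non-sorted. Libraries that list miR-295-3p held 49.8 to 76.1 RPM and the others 13.7 to 47.9, without overlap, and the split term was 1.19.

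miR-19b-1-3p was 72.6, 197 and 67.4 RPM in High 1, 2 and 3, 70.9, 169 and 154 in Low, 79.9, 140 and 71.0 in Sublow, 163, 150 and 81.6 in Negative, and 147 and 128 in Non-sorted. Its highest library was High 2 and its lowest High 3, so the High population spanned the whole range. High against Low was -0.54 for miR-19a-3p (95% interval -1.80 to 0.72, adjusted p = 0.539), -0.31 for miR-19b-1-3p (-1.32 to 0.70, adjusted p = 0.689) and -0.31 for miR-19b-2-3p (-1.28 to 0.67, adjusted p = 0.68). The interval for miR-19a-3p reached the -1.67 of miR-93-5p, and those for the miR-19b copies did not. After median-ratio scaling the values for the miR-19b copies were 0.01 and 0.02. Within the libraries without miR-295-3p High against Low was -1.04 for miR-19a-3p, -0.58 for miR-19b-1-3p and -0.56 for miR-19b-2-3p, and within those with it the sign was the opposite, at 0.45, 0.22 and 0.20.

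The balance between miR-17-5p and miR-19b-1-3p was described by a ratio that does not depend on the library total. As miR-17-5p was 6.56 to 14.2% of the sum over the miR-17 seed, this is not the balance of the seed families. Its denominator, miR-19b-1-3p, has the same sequence as the X-linked copy, so the ratio is not confined to the miR-17-92 cluster. The ratio of miR-17-5p to miR-19b-1-3p was 1.03 to 1.55 in High, 3.39 to 6.59 in Low, 3.86 to 10.1 in Sublow and 2.32 to 4.46 in Negative, and the Non-sorted libraries had 1.61 and 2.94. The High libraries lay below all others in this ratio, for which no test was made.

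Counted over the members, 5 of 10 differed among the sorted populations in the moderated F test (miR-17-5p, miR-20a-5p, miR-93-5p, miR-106b-3p and miR-18a-5p), against 72.3% of all tested entries. In High against Low, 4 of 10 were called, all lower, against 20.1% of all tested entries called lower and 7.99% higher. The median log2 difference was -0.91 for the members and -0.11 for all entries. In High against Sublow 5 of 10 were called lower, against 22.4% lower and 28.1% higher, with medians of -1.03 and 0.07. In High against Negative 5 were called lower, also against 22.4%, with medians of -0.76 and 0.57, and 43.9% of all entries were higher in High. That last count was 3 without High 1, Negative 1 or Negative 2, and 1 with a lane term, which left miR-93-5p.

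The members were also compared between the other populations. In Negative against Low, 2 of 10 were called lower (miR-93-5p and miR-106b-3p), against 49.5% lower and 16.5% higher, with medians of 0.03 and -0.90. The same pair of miRNAs was called lower in Negative against Sublow, against 26.9% lower and 8.67% higher, with medians of -0.13 and -0.37. In Sublow against Low, limma called 0 of 10, against 24.3% lower and 10.4% higher, and 2 (miR-93-5p and miR-18a-5p) had an unadjusted p under 0.05. No member was called higher in the first population of any of these 6 comparisons. These comparisons share libraries, and the identical miR-19b copies count as 2 of the 10.

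Median-ratio scaling moved the typical entry by 0.32 in High against Low, 0.39 in Sublow against Low, 0.84 in Negative against Low, 0.46 in Negative against Sublow, -0.07 in High against Sublow and -0.52 in High against Negative. miR-17-5p, miR-20a-5p and miR-93-5p were called lower in High than in each other sorted population under both scalings. In Negative against Low, miR-17-5p turned from -0.48 to 0.40 and miR-20a-5p from -0.30 to 0.58, none of them called.

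**Figure D4:**
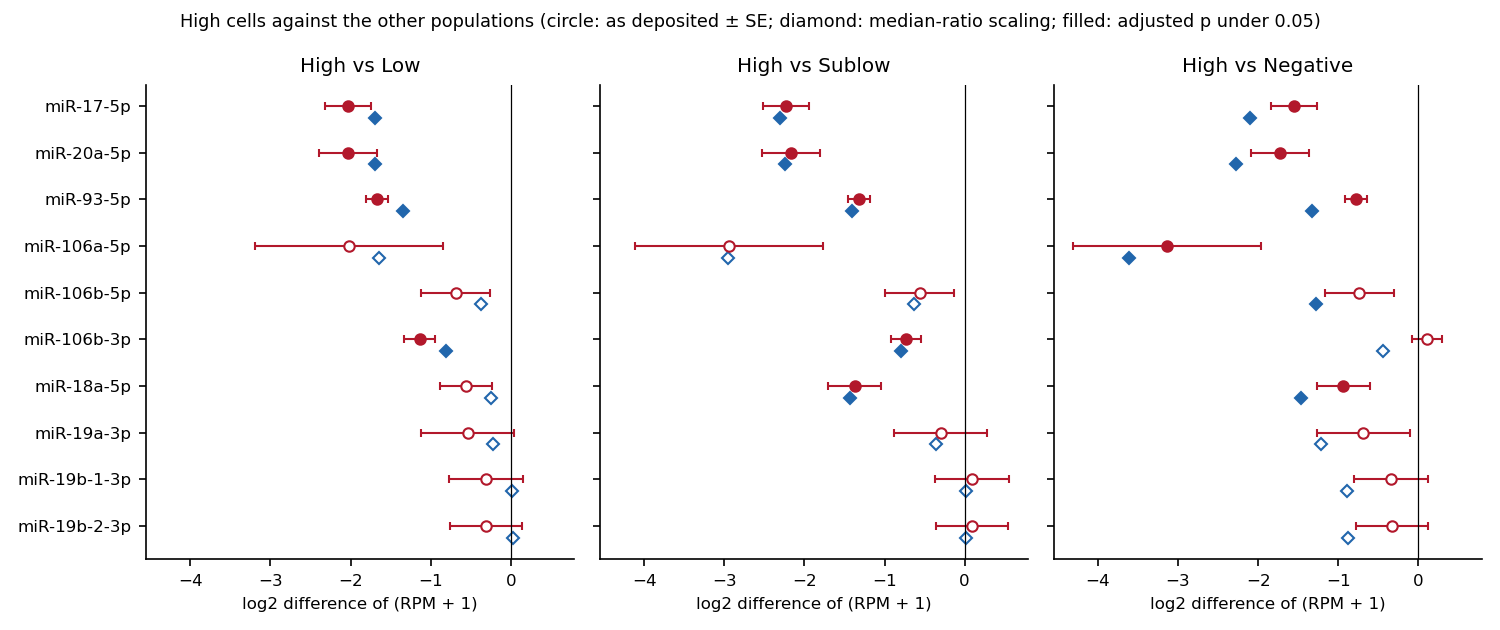
Log2 difference of (RPM + 1) of High from Low, Sublow and Negative (panels) for the 10 members, as deposited (circles with SE) and after median-ratio scaling (diamonds), filled where the adjusted p was under 0.05. miR-17-5p, miR-20a-5p and miR-93-5p lie left of 0 and are filled in all panels, and the miR-19 entries are open in all panels.

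The other arms and genes of the 3 clusters were counted from a list of 20, of which 16 are in the table and 10 passed the filter. In High against Low, 8 of these 10 were lower and 0 higher, against 20.1% and 7.99% of all entries, with a median of -1.83. miR-92a-1-3p was among them at a log2 difference of -1.84 (adjusted p = 0.000283), and so was miR-92a-2-3p (-1.83, adjusted p = 3.42e-05). Their mature sequences are identical in RefSeq, one hairpin being the last of the miR-17-92 transcript and the other X-linked. Unlike the miR-19b copies, they had unequal values, with means of 14659 and 1160 RPM in Low and 4065 and 568 in Negative. How reads were divided between them is not stated, so neither value can be assigned to a hairpin. These identical sequences count as 2 of the 8. After median-ratio scaling, High against Low was not called for miR-17-3p (adjusted p = 0.119) or miR-92a-1-5p (0.0888). With a lane term it was not called for miR-17-3p (adjusted p = 0.0742) or miR-92a-2-5p (0.141). Sublow against Low gave 5 lower, against 24.3% of all entries, Negative against Low 6, against 49.5%, and Negative against Sublow 1, against 26.9%. After median-ratio scaling the counts against Low were 2 and 3. High against Sublow gave 4 lower, against 22.4%, and High against Negative 4 lower and 1 higher, against 22.4% and 43.9%, with 0 in either direction under a lane term. The 1 higher was miR-25-3p (0.80, adjusted p = 0.000221), which is cut from the same Mcm7 transcript as miR-93-5p. That call was lost after median-ratio scaling (0.25, adjusted p = 0.0776) and with a lane term (0.58, adjusted p = 0.113).

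miR-25-3p and miR-93-5p thus differed in their order of levels. The ratio of miR-93-5p to miR-25-3p was 0.434 ± 0.038 in High (SD, n = 3), 0.520 ± 0.0051 in Low, 0.712 ± 0.12 in Sublow and 1.30 ± 0.16 in Negative. It was higher at each step from High to Negative, and the ranges of the 4 populations did not overlap, so these neighbours on chromosome 5 did not keep a fixed proportion. The ratio was not tested.

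Shifted entries carry a sign and a number, read here as a start moved from the annotated base, since the header does not define them. The members have 32 such entries, of which 5 passed the filter: miR-17-5p, miR-20a-5p and miR-93-5p at +1 and miR-106b-3p at -1 and -2. Shifted reads were a small share by the median over libraries, at 1.64% for miR-93-5p, 3.78% for miR-17-5p, 5.57% for miR-20a-5p and 7.57% for miR-106b-3p. In single libraries the share reached 19.5% for miR-18a-5p (median 0%), 10.6% for miR-20a-5p, 10.5% for miR-106b-3p and 10.2% for miR-19a-3p. Under that reading, a start 1 base later gives miR-93-5p the sequence below, whose seed is that of miR-295-3p, shown for comparison.
miR-93-5p at +1: aAAGUGCUguucgugcagguag
miR-295-3p: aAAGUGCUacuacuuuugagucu

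The +1 form of miR-93-5p was 10.8, 28.6 and 31.7 RPM in High 1, 2 and 3, 47.8, 66.3 and 67.0 in Low, 50.0, 61.0 and 48.3 in Sublow, and 32.1, 37.2 and 29.3 in Negative. Low and Sublow lay above Negative, as for the annotated form, whereas High overlapped Negative. When shifted forms were added to the annotated ones, the calls among the members were those of the annotated forms except that miR-106a-5p was also called in High against Sublow (-2.99, adjusted p = 0.0491).

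By likeness over the 12 sorted libraries (Pearson r of log2 values, 255 annotated entries outside the clusters), miR-17-5p was most like miR-107-3p (0.905), miR-185-5p (0.899) and miR-21-5p (0.894). miR-93-5p was most like miR-221-3p (0.958), miR-181b-2-5p (0.944) and miR-181b-1-5p (0.941). miR-18a-5p was most like miR-34a-5p (0.838), and miR-19b-1-3p like miR-411-3p (0.931), whose group means were 3.3 to 14.4 RPM. The points share populations, library totals and the split of the libraries, and these values are descriptions.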

How the data were processed

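The authors deposited 1 table of RPM values for 2030 miRNA entries in 14 libraries, in which each column sums to 1e+06, as tested on the file. Libraries were prepared with a TriLink CleanTag small RNA kit, per the labels' protocols. The build is mm9, per the submitters' processing notes. Which aligner and which counting rules were used is not given in the sources used here. Coordinates were not converted, and names, sequences and host genes come from GRCm38.

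Depth was estimated from the steps between low values. Of these, 70.8 to 84.6% were whole reads within 0.1 read, so no count test was run. The filter, 10 RPM or more in at least 3 libraries, left 588 entries, 275 annotated starts and 313 shifted ones. log2(RPM + 1) was fitted with limma 3.58.1 in R 4.3.3, with 5 group means and a mean-variance trend. All p-values are two-sided and were adjusted by Benjamini-Hochberg across all 588 entries. An entry is called at an adjusted p under 0.05. Fold changes on this scale understate those of low entries. The fit was tested on simulated data.

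The 10 members were named by the rule of the family, and their cluster partners and the 3 most alike entries of selected members were named too. The members and lists were chosen with earlier results of these data known. Alternatives were 11 other settings, leaving out each of the 14 libraries, and 2 fits for the split that were added later. Replicate numbers are not stated to pair libraries. Plots come from matplotlib 3.10.9 (Python 3.11.15).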

Additional observations from a re-analysis of the deposited data

How the results depend on the processing

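Leaving out each library in turn gave 4 to 5 members called in High against Low, 5 to 6 in High against Sublow, 3 to 7 in High against Negative, 2 in Negative against Low, 2 to 3 in Negative against Sublow, 0 to 1 in Sublow against Low and 5 to 6 in the F test. The 7 were reached without High 2 and included miR-19a-3p, and the 3 without High 1, Negative 1 or Negative 2. In Sublow against Low, 1 member was called with a filter of at least 100 RPM and with only the sorted libraries (miR-93-5p, lower), and 1 with median-ratio scaling and quantile normalization (miR-18a-5p, higher). With median-ratio scaling, the count was 1 in Negative against Low (miR-18a-5p, higher) and 0 in Negative against Sublow. Quantile normalization also called miR-18a-5p higher in Negative against Low (0.94, adjusted p = 0.0273). High against Negative gave 3 with the filter of at least 100 RPM, where fewer members were tested, and 1 with a lane term. Among the 7 sorted libraries without miR-295-3p, a fit added after seeing the data, Negative against Sublow gave 1. The causes were not tested.

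Among the differences given in the report, signs turned with median-ratio scaling for miR-17-5p in Negative against Low (0.40), miR-20a-5p in Negative against Low (0.58) and against Sublow (0.04), miR-93-5p in Sublow against Low (0.05), miR-106b-3p in High against Negative (-0.44), miR-18a-5p in Negative against Sublow (0.04) and the miR-19b copies in High against Low (0.01 and 0.02). miR-106b-3p in High against Negative also turned with a lane term (-0.24) and without High 1 (-0.03, the lowest of -0.03 to 0.31 over the libraries left out). Over all 60 comparisons of the members, 11 signs turned with median-ratio scaling, among them miR-106b-5p (0.26) and miR-19a-3p (0.14) in Sublow against Low, 4 with quantile normalization, 9 with a lane term, 7 with the split term, 8 among the 7 libraries and 0 to 4 without any one library. None of these was called in either fit.

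Replicate numbers are shared between groups. Of 26 pairs of libraries with the same number, 16 had deviations from their group means that correlated above 0.1 (-0.35 to 0.78, median 0.325), against 11 of 52 pairs with different numbers (median -0.105). For 11 of 14 libraries the best match in another group had the same number, and for 13 it was on the same side of the split. Deviations within a group cancel out, so likeness in some pairs brings the opposite in others, and the medians are not independent. The 2 Non-sorted libraries mirror each other, and both count among the 11 with best matches of only 0.11 and 0.10. The column names carry a code that follows the number, whose meaning the labels do not give. No label states a pairing, and the main fit held no term for the number. The number and the split overlap, since every library numbered 2 lists miR-295-3p and none numbered 3 does. A likeness by number can therefore not be told apart from a likeness by side of the split. With the replicate block, 4 members were called in High against Low, 0 in Sublow against Low, 2 in Negative against Low, 2 in Negative against Sublow, 6 in High against Sublow, 5 in High against Negative and 6 in the F test, miR-106a-5p being the one added in both. By side of the miR-295-3p split, 26 of 37 pairs on the same side and 1 of 41 on different sides correlated above 0.1.

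Depth limits miR-106a-5p, miR-19a-3p and miR-18a-5p most. miR-106a-5p rested on 0 to 605 estimated reads per library, miR-19a-3p on 26 to 497 and miR-18a-5p on 30 to 663, against 2587 to 50122 for miR-93-5p. With a fixed total per library, a lower share and fewer molecules cannot be told apart.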
